A study of Mus musculus with 6 samples.

Results

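The 6 genes described here are Map2k1, which encodes the kinase MEK1, the ERK phosphatase genes Dusp6 and Dusp4, and the early response genes Egr1, Ier2 and Myc. They were taken by gene name from a table of 4994 genes, and 6 of 6 were found there. The table comes from RNA-seq of wild-type mouse inner ear organoids, 3-dimensional cultures that the labels describe as epithelial cells. The 3 PD organoid samples were treated for 10 days with 1 μM PD0325901, an inhibitor of MEK1 and MEK2, and the 3 DMSO organoid samples with an equal volume of the solvent. The medium of all 6 samples contained 20 ng/mL EGF, 10 ng/mL bFGF, 50 ng/mL IGF and 3 μM CHIR99021, which inhibits GSK3. The stated question was by what mechanism PD0325901 promotes the generation of hair cells. Nothing in the labels says that samples of 1 group came from separate cultures, so the p-values here measure a spread that may be technical.

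EGF and FGF receptors activate RAS, which recruits RAF kinases; RAF phosphorylates MEK1 and MEK2, and these phosphorylate the kinases ERK1 and ERK2. Active ERK switches on early response genes within a short time of stimulation and also induces its own inhibitors, among them phosphatases that remove the activating phosphates from ERK. In the developing inner ear, FGF signalling through ERK acts in the induction of the otic placode and in the patterning of the sensory epithelium.

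Positions are on the mouse build GRCm38 (mm10), from the GENCODE M21 annotation. Map2k1 (ENSMUSG00000004936) spans chr9:64185770-64253631 on the minus strand, with 11 exons in its longest coding transcript. Dusp6 (ENSMUSG00000019960) spans chr10:99263231-99267489 on the plus strand with 3 exons, and Dusp4 (ENSMUSG00000031530) chr8:34807297-34819894 on the plus strand with 4 exons. Ier2 (ENSMUSG00000053560) spans chr8:84661331-84662852 on the minus strand with 1 exon. Myc (ENSMUSG00000022346) spans chr15:61985391-61990374 on the plus strand with 3 exons. The early genes and Dusp6 are compact: Ier2 spans 1522 bp, Dusp6 4259 bp, Myc 4984 bp and Egr1 5162 bp, against a median of 27485 bp over the 4325 protein-coding genes of the table. Map2k1, at 67862 bp, is longer than 73.1% of those genes. Of the 6 genes only Map2k1 overlaps other annotated genes, and those 3, among them the coding gene Uchl4, lie on the opposite strand.

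Dusp6 and Dusp4 belong to the same phosphatase family, and the codons of their catalytic signature are shown because both genes fell steeply in PD organoids. Capitals mark the signature, which holds the catalytic cysteine, with 1 codon on either side in lower case; the letters are from the GENCODE M21 transcripts of GRCm38, coding strand, 5′ to 3′.
Dusp6: gtgCATTGCTTGGCAGGTATCAGCCGCtct
Dusp4: gttCACTGCCAGGCCGGCATCTCCCGAtca
The signature covers codons 292 to 299 of the 381 in Dusp6 and codons 283 to 290 of the 398 in Dusp4. Of its 24 bases 16 are alike, and over the whole coding sequence 62.3% of 1057 aligned bases are identical.

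Upstream sequence is shown for Dusp6 and Map2k1, the kinase gene and the most abundant phosphatase gene of the set; Dusp4, Egr1, Ier2 and Myc are named only. The 250 bases before the start annotated in RefSeq are taken on GRCm38.p6, 5′ to 3′ on the gene's own strand. For Dusp6, on the plus strand at chr10:99262981-99263230, capitals mark GGAA or its reverse complement, the core recognised by ETS factors. For Map2k1, on the minus strand at chr9:64253606-64253855, capitals mark the GC box GGGCGG or its reverse complement. GENCODE starts Map2k1 at 64253631, so the end of this window lies inside the gene as given above. That end holds the GC box at -20 to -15 and the GGAA core at -24 to -21.
Dusp6: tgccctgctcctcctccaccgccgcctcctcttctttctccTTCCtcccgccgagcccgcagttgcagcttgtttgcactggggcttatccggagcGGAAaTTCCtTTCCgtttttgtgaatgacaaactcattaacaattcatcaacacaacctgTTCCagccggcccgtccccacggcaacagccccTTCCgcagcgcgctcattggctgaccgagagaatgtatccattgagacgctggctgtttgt
Map2k1: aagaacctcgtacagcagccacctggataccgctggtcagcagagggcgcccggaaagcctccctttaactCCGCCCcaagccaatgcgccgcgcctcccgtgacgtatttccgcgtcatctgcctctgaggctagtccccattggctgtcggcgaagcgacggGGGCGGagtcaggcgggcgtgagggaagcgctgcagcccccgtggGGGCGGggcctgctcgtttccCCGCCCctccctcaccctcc
Counting both strands, the Dusp6 window held 6 GGAA cores and no GC box, and the Map2k1 window 4 of each. A GGAA core stood in 93.4% of the 27025 upstream windows of RefSeq genes, at a median of 3 per window, and a GC box in 32.9%. Among the 3528 windows of genes in the table, 92.7% held a GGAA core and 57.7% a GC box. The longer ETS site CCGGAAGT, which contains the core, stood in 2.93% of all windows, the cyclic AMP element TGACGTCA in 1.62%, the AP-1 site TGANTCA in 6.87%, the E-box CACGTG in 6.05% and the CArG box of serum response factor in 1.40%. None of these 5 letter patterns matched in the Dusp6 or Map2k1 window, which says only that the letters are not in these 250 bases.

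Values are the normalized signal the authors deposited per gene and library, with no scale stated. Among 243 genes with a mean under 0.3, the smallest value above 0 had a median of 0.08 in the 61 genes of shortest exonic length and of 0.03 in the 61 genes of longest, as values scaled by length do. The depth of the libraries is unknown, so no counting interval is given. The log2 values correlated at 0.983 to 0.987 between PD libraries, at 0.987 to 0.988 between DMSO libraries and at 0.837 to 0.843 between groups, across genes that are not independent replicates. Every gene in the authors' deposited table differs there by 1.5-fold or more, up or down, at an adjusted p no higher than 0.0499, so the genes were selected on these same samples. In limma, 95.5% of the 4994 genes had an adjusted p under 0.05, 44.5% higher and 51.1% lower in PD organoids, and in 95.2% the values of the groups did not overlap. Under median-of-ratios scaling the balance turned, to 2262 genes higher and 2167 lower. The 6 of 6 genes called here, and the 6 of 6 without overlap, therefore stand near the background of the table and are no result about these genes. What the data add is the size and the order of their differences, among genes selected at 1.5-fold or more. The order of the largest falls depends on the pseudocount.

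Map2k1, whose protein product is a direct target of the inhibitor, had values of 80.64, 77.52 and 79.76 in the PD libraries, against 225.16, 237.57 and 229.24 in the DMSO libraries. The groups were far apart and the libraries of each group lay within a few percent of each other. The mean was 79.3 ± 1.61 in PD organoids and 231 ± 6.33 in DMSO organoids (SD, n = 3 each), so PD organoids held 34.4% of the DMSO level. On log2(value + 1) the difference was -1.53 ± 0.05 (SE, limma adjusted p = 5.96e-07). The authors' deposited table gives a fold of 0.35. Whether the counting used strand was not given in the sources used here, so reads of Uchl4 and the other overlapping genes cannot be told from those of Map2k1.

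Dusp6 encodes a cytoplasmic phosphatase with a strong preference for ERK. Its values were 13.77, 11.13 and 12.11 in the PD libraries, against 146.96, 153.84 and 148.67 in the DMSO libraries. The highest PD library, at 13.77, was far below the lowest DMSO library, at 146.96. The PD mean was 8.23% of the DMSO mean, 12.1-fold lower, and log2 values differed by -3.50 ± 0.08 (SE, limma adjusted p = 2.00e-07). Only 0.821% of the genes in the table had a larger absolute log2 difference.

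Dusp4 encodes a nuclear phosphatase that acts on ERK and on other MAP kinases. Its values were 1.31, 0.97 and 2.21 in the PD libraries, against 21.3, 21.37 and 22.88 in the DMSO libraries. The PD libraries were all low, but they differed among themselves more than the DMSO libraries did, with a coefficient of variation of 42.8% in PD organoids and 4.09% in DMSO organoids. The PD mean was 14.6-fold lower than the DMSO mean, and log2 values differed by -3.22 ± 0.18 (SE, limma adjusted p = 4.36e-06).

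Egr1 (ENSMUSG00000038418, chr18:34859823-34864984, plus strand, 2 exons) encodes a zinc finger transcription factor and is a classic early response gene. It had values of 0.24, 0.2 and 0.39 in the PD libraries, against 10.45, 12.13 and 13.37 in the DMSO libraries. All PD libraries stayed under 1 and all DMSO libraries were above 10. The PD mean was 2.31% of the DMSO mean, 43.3-fold lower and the largest fall of the 6 genes as a ratio of means. On log2(value + 1) the difference was -3.34 ± 0.14 (SE, limma adjusted p = 1.31e-06), because adding 1 to values this low compresses the change.

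Ier2, an early response gene whose product acts in the nucleus, had a smaller log2 difference than Egr1. Its values were 17.24, 20.01 and 15.87 in the PD libraries, against 38.48, 34.94 and 36.87 in the DMSO libraries. The groups did not overlap, and the PD mean was 48.2% of the DMSO mean. The log2 difference was -1.02 ± 0.10 (SE, limma adjusted p = 4.61e-05), and 37.5% of the genes in the table had a larger absolute difference.

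Myc, which encodes a transcription factor of growth and proliferation, was the only gene of the 6 to rise. Its values were 7.82, 8.6 and 5.9 in the PD libraries, against 4.35, 3.7 and 4.39 in the DMSO libraries. The lowest PD library was still above the highest DMSO library, by 5.9 to 4.39. The mean was 7.44 ± 1.39 in PD organoids and 4.15 ± 0.387 in DMSO organoids (SD, n = 3 each), 1.79-fold higher, and log2 values differed by 0.70 ± 0.16 (SE, limma adjusted p = 0.00328). The authors' deposited table gives a fold of 1.601. A larger absolute log2 difference was found for 64.9% of the genes tested.

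**Figure D1:**
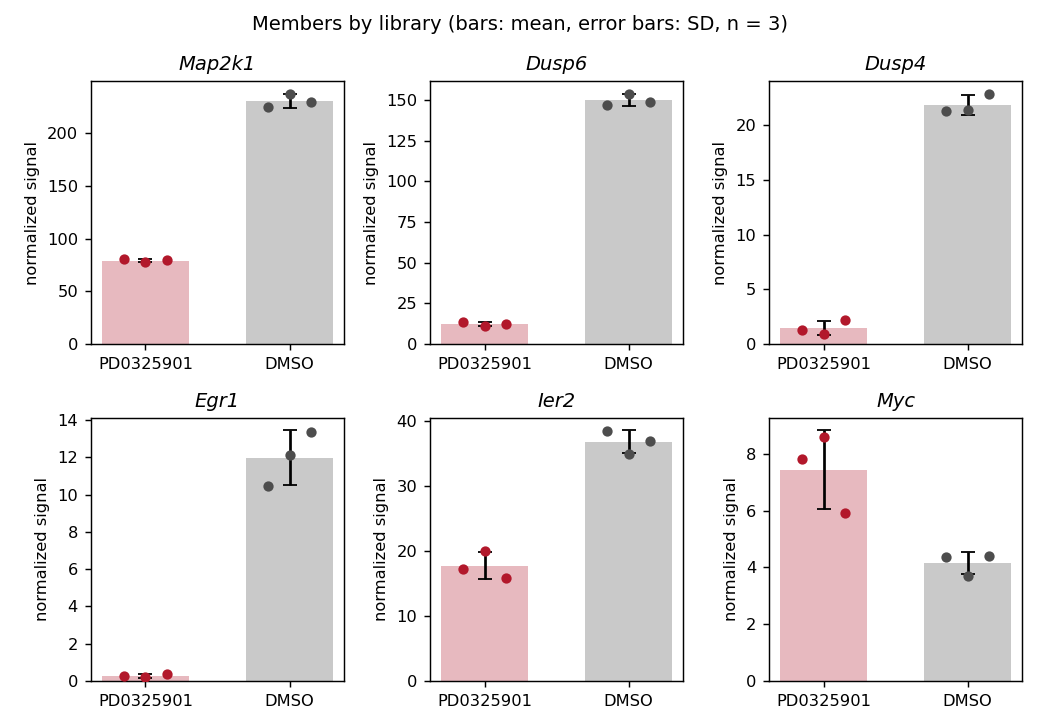
Normalized signal (vertical axis, scale not stated, each panel from 0) of the 6 genes in the PD0325901 libraries (left) and the DMSO libraries (right). Points are libraries, bars are means and error bars SD (n = 3 each). Dusp6, Dusp4 and Egr1 have PD means at 8.23%, 6.85% and 2.31% of the DMSO means, and Myc alone is higher in PD0325901.

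**Figure D2:**
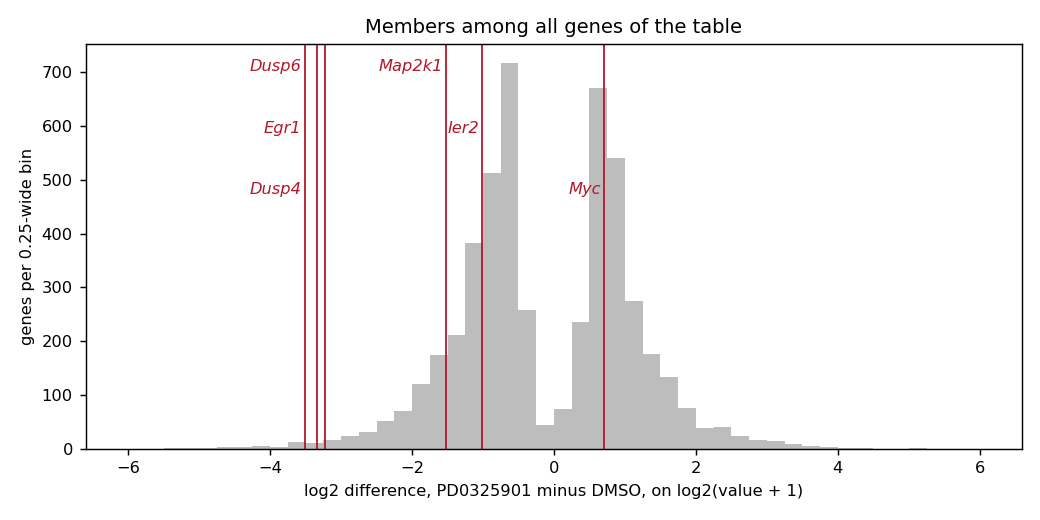
Number of genes of the table (vertical axis) by log2 difference on log2(value + 1), PD0325901 minus DMSO (horizontal axis, bins 0.25 wide), with red lines at the 6 genes. The gap around 0 is the authors' selection of genes that differ. Dusp6, Egr1 and Dusp4 lie in the far left tail, whereas Ier2 and Myc, at -1.02 and 0.70, lie in the bulk.

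The order of the 6 genes by level changed with treatment. In PD organoids Map2k1 was highest at a mean of 79.3, followed by Ier2 at 17.7, Dusp6 at 12.3, Myc at 7.44, Dusp4 at 1.497 and Egr1 at 0.277. In DMSO organoids Map2k1 was highest at 231, followed by Dusp6 at 149.8, Ier2 at 36.8, Dusp4 at 21.9, Egr1 at 11.98 and Myc at 4.15. Neighbours in both orders had values that did not overlap between their 3 libraries. Myc was thus the lowest of the 6 in DMSO organoids and stood above Dusp4 and Egr1 in PD organoids. These levels compare genes on a signal that only appears to be scaled by length.

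Ratios between genes within a library do not depend on how libraries were scaled, apart from the pseudocount, and show whether the genes changed unequally. Ier2 over Myc gave log2 ratios of 1.05, 1.13 and 1.29 in the PD libraries, against 2.88, 2.93 and 2.81 in the DMSO libraries. The mean difference was -1.72, the smallest in size among the 5 pairs that include Myc. Dusp6 over Ier2 went to -0.30, -0.79 and -0.36 in the PD libraries, against 1.91, 2.11 and 1.98 in the DMSO libraries, so Dusp6 was above Ier2 in every DMSO library and below it in every PD library. Over the 15 pairs, 12 did not overlap between groups (two-sided exact permutation p = 0.1 for each, the smallest that 3 against 3 samples allow; 0.125 after Benjamini-Hochberg adjustment over the pairs). The genes of the table were selected on these same samples, and in 95.2% of them the values of the groups did not overlap. The share among other pairs of genes in the table was not computed, and the 15 pairs are not independent because they share genes. The count of 12 is therefore no result about these genes. The 3 pairs that overlapped were those among Dusp6, Dusp4 and Egr1. Their mean log2 ratio differed by -0.28 for Dusp6 over Dusp4 (exact permutation p = 0.2), by -0.16 for Dusp6 over Egr1 (exact permutation p = 0.3) and by 0.12 for Dusp4 over Egr1 (exact permutation p = 0.7). The order among these 3 depends on the pseudocount. With 0.1 in place of 1 the difference was 0.26 for Dusp6 over Dusp4 (exact permutation p = 0.4), 1.43 for Dusp6 over Egr1 and 1.17 for Dusp4 over Egr1 (exact permutation p = 0.1 for each of the pairs with Egr1).

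**Figure D3:**
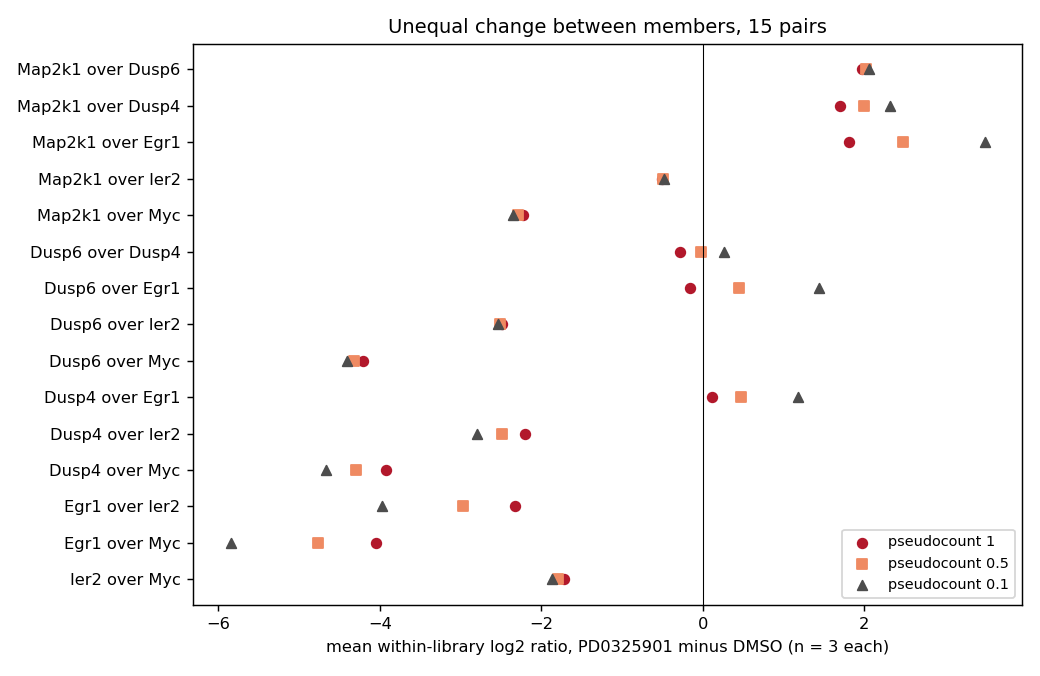
Difference in mean within-library log2 ratio between PD0325901 and DMSO (horizontal axis, n = 3 each) for the 15 pairs of genes (vertical axis), at pseudocounts of 1, 0.5 and 0.1. Pairs of Dusp6, Dusp4 and Egr1 lie near 0 at a pseudocount of 1, from -0.28 to 0.12, and pairs with Egr1 move most with the pseudocount.

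The other DUSP genes in the table were also lower in PD organoids, by smaller amounts than Dusp6 and Dusp4 on log2(value + 1). Of 25 genes on the list 7 are in the table, these 2 and 5 others, and the other 18 are not analysed here. All 5 others were lower, where 51.1% of the table was lower. Their median log2 difference of -0.57 lay near the -0.42 over all genes, but adding 1 compresses changes at values this low. As ratios, PD means were 19.0% of DMSO means for Dusp1, 16.9% for Dusp8, 31.1% for Dusp9 and 62.1% for Dusp14. For Dusp26 the PD mean was 0. With Dusp6 and Dusp4 included the median log2 difference was -1.12. Dusp1, an early response phosphatase gene of the nucleus that acts on p38, JNK and ERK, had 1.27, 1.54 and 0.66 in the PD libraries, against 4.85, 5.61 and 7.76 in the DMSO libraries. Its log2 difference was -1.72 ± 0.22 (SE, limma adjusted p = 0.000183). Dusp8, a phosphatase gene for stress-activated kinases, averaged 0.317 in PD organoids and 1.87 in DMSO organoids, with a log2 difference of -1.12. Dusp9, a relative of Dusp6, averaged 0.183 in PD organoids and 0.590 in DMSO organoids. Dusp26 was listed at 0 in all PD libraries and at 0.4, 0.29 and 0.21 in the DMSO libraries. Dusp14 averaged 2.67 ± 1.05 in PD organoids and 4.30 ± 0.200 in DMSO organoids (limma adjusted p = 0.0308). Its call was lost without PD replicate 1 or 2 or any single DMSO replicate, at limma adjusted p of 0.0581 to 0.0868, and under median-of-ratios scaling, at 0.221.

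Of 37 genes of the cascade from RAS to ERK on the list 8 are in the table, 4 higher and 4 lower in PD organoids, near the 44.5% higher and 51.1% lower of the whole table. Their median log2 difference was -0.09, and 0.46 without Map2k1, against -0.42 over all genes. Among those that encode components passing the signal on, Map2k1 was lower, as was the RAS-related GTPase gene Rras, at 14.8 ± 1.69 in PD organoids and 24.7 ± 2.33 in DMSO organoids. Mras, another RAS relative, was higher at 12.5 ± 1.59 in PD organoids and 8.40 ± 0.811 in DMSO organoids. Shoc2, which encodes a scaffold that with MRAS and the phosphatase PP1 activates RAF, averaged 35.3 ± 2.93 in PD organoids and 22.9 ± 1.24 in DMSO organoids, a rise of 0.60 on the log2 scale. The gene of the MEK and RAF scaffold Ksr1 rose most, with 17.86, 16.91 and 15.98 in the PD libraries, against 6.38, 9.09 and 6.52 in the DMSO libraries, which is 1.12 ± 0.14 on the log2 scale (SE, limma adjusted p = 0.000182). Its relative Ksr2 averaged 1.31 in PD organoids and 0.680 in DMSO organoids, a rise of 0.46 on the log2 scale. The genes of 2 RAS inhibitors fell. Nf1, the neurofibromin gene, averaged 17.6 ± 1.89 in PD organoids and 31.1 ± 2.47 in DMSO organoids, and Rasa3 averaged 1.65 ± 0.535 in PD organoids and 3.09 ± 0.384 in DMSO organoids. The Rasa3 call was lost under median-of-ratios scaling (limma adjusted p = 0.0671).

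The immediate early genes mostly fell, and Ier2 lay near the middle of them. Of 42 names on the list 21 are in the table; 17 were lower, 3 higher and 1 not called, where 51.1% of the table was lower and 44.5% higher. The median log2 difference was -0.79, and -0.78 without Egr1, Ier2 and Myc, against -0.42 over all genes. Under median-of-ratios scaling the list gave 13 lower and 4 higher, where 2167 of the 4994 genes were lower and 2262 higher. After Egr1, the steepest named falls were those of Maff, a small MAF transcription factor gene, and Phlda1. Maff had 0.36, 0.69 and 0.89 in the PD libraries, against 7.59, 7.41 and 8.33 in the DMSO libraries, a log2 difference of -2.43. Phlda1 averaged 10.6 ± 2.01 in PD organoids and 43.0 ± 3.71 in DMSO organoids. Zfp36l2, which encodes a protein that promotes decay of mRNAs with AU-rich elements, averaged 23.1 ± 1.82 in PD organoids and 84.1 ± 1.95 in DMSO organoids, or -1.82 ± 0.07 on the log2 scale (SE, limma adjusted p = 1.12e-06). Klf10, a TGF-beta-inducible repressor gene, had a log2 difference of -1.64. Jun, the AP-1 subunit gene, had 7.97, 12.09 and 9.87 in the PD libraries, against 27.17, 29.22 and 31.92 in the DMSO libraries, a log2 difference of -1.49.

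Klf2, a Kruppel-like transcription factor gene, went the other way from most early genes in the table. It had 4.53, 5.19 and 3.24 in the PD libraries, against 0.1, 0.06 and 0.26 in the DMSO libraries, or 2.21 ± 0.16 on the log2 scale (SE, limma adjusted p = 1.39e-05). The other early genes that rose were Myc and, named after its values were seen, Arc, at 2.43 in PD organoids and 0.997 in DMSO organoids. Fosb, likewise named with its values known, missed the threshold, with 0.62, 2.58 and 1.01 in the PD libraries and 0.49, 0.44 and 0.54 in the DMSO libraries (limma adjusted p = 0.0590). It passed without PD replicate 1 (limma adjusted p = 0.0143), with a pseudocount of 0.1 (0.0444), with the replicate block (0.0442), and under median-of-ratios scaling (0.0332) or scaling without mitochondrially encoded genes (0.0496).

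MYC acts on DNA as a dimer with MAX, and MXD proteins compete for MAX as repressors. Of 28 genes of this network on the list 8 are in the table, 3 higher and 5 lower in PD organoids, near the 44.5% higher and 51.1% lower of the whole table. Their median log2 difference was -0.94, against -0.42 over all genes. Among the MXD genes, Mxd4 rose most, with 61.18, 57.61 and 60.91 in the PD libraries, against 14.99, 16.74 and 15.64 in the DMSO libraries, or 1.86 ± 0.07 on the log2 scale (SE, limma adjusted p = 9.67e-07). Mxd1 averaged 5.96 ± 0.0751 in PD organoids and 2.51 ± 0.126 in DMSO organoids. Mxd3 and Mxi1 fell: Mxd3 averaged 2.21 ± 0.291 in PD organoids and 6.61 ± 1.89 in DMSO organoids, and Mxi1 averaged 22.6 ± 1.30 in PD organoids and 49.4 ± 4.66 in DMSO organoids. Ldha and Ccnd2, a lactate dehydrogenase gene and a D-type cyclin gene that MYC can activate, were lower while Myc was higher. Ldha averaged 256 ± 46.7 in PD organoids and 1443 ± 51.6 in DMSO organoids, and Ccnd2 averaged 1.88 ± 0.505 in PD organoids and 4.34 ± 0.497 in DMSO organoids. The Ldha value is uncertain where the counting could split reads between the gene and near-identical copies. Mlxipl, which encodes the glucose-responsive factor ChREBP, had a log2 difference of -0.98.

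**Figure D4:**
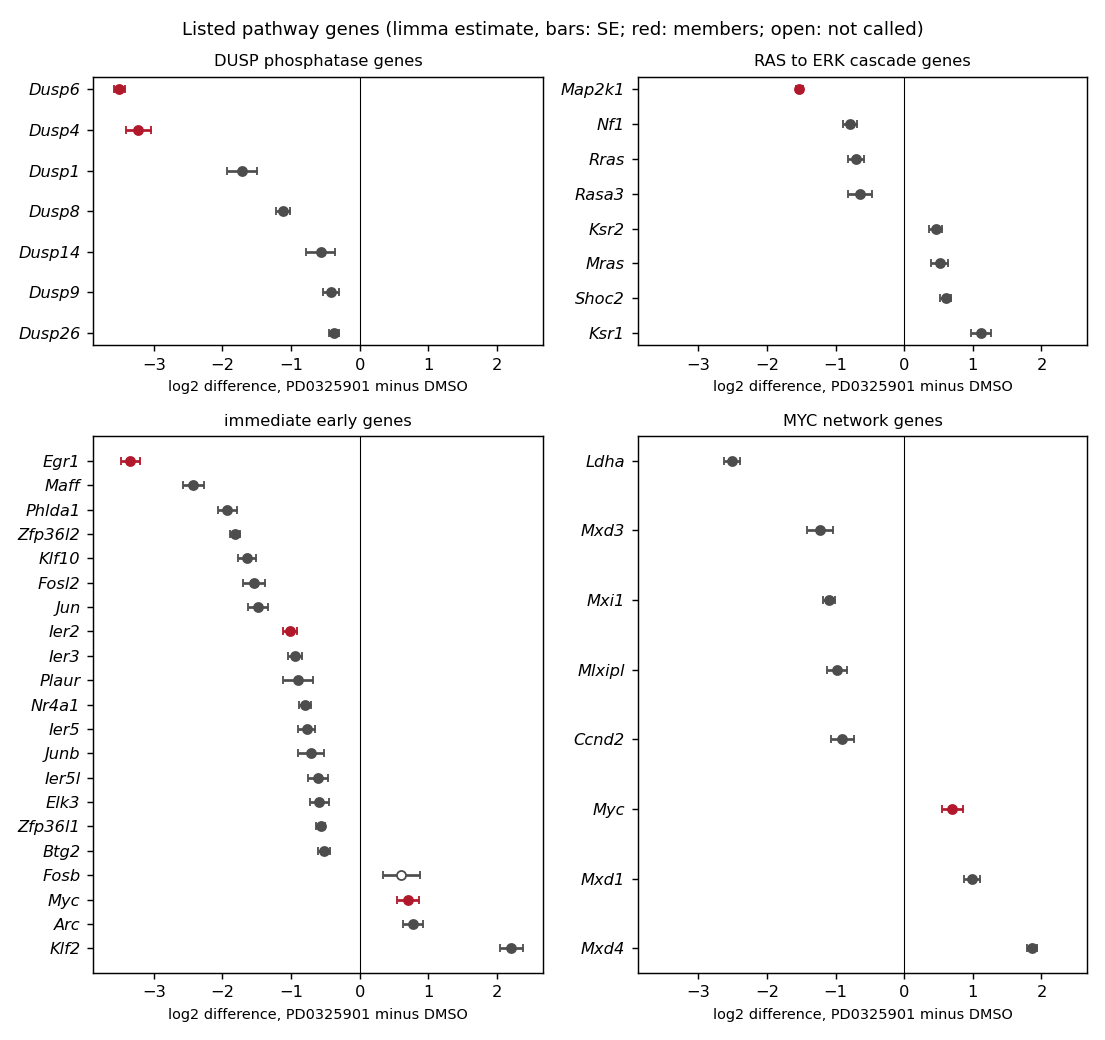
Log2 difference, PD0325901 minus DMSO, on log2(value + 1) (horizontal axes, error bars SE, n = 3 each) for every gene in the table from the lists of DUSP phosphatases, RAS to ERK cascade genes, immediate early genes and MYC network genes. Red marks the 6 genes described here and an open point a gene not called. All 7 DUSP genes lie left of 0, and the cascade splits into 4 on either side.

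Early response mRNAs are often short-lived, and AU-rich motifs in the 3′ untranslated region are a known feature of unstable mRNAs. In the GENCODE M21 coding transcripts the pentamer ATTTA occurred 2 times each in the 3′ regions of Myc, Egr1 and Dusp4, 1 time each in Dusp6 and Map2k1, and 0 times in Ier2. The median was 1 over 20636 coding genes. The longer motif TTATTTATT, which contains the pentamer, was in none of the 6 and in 6.91% of those genes. Per 1 kb of 3′ region Myc had 4.52 pentamers, the most of the 6, against a median of 1.12 over all coding genes. This density rests on 2 pentamers in a 3′ region of 442 bases.

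The closest profiles over the 6 libraries were sought by root mean square difference of log2(value + 1) centred on the DMSO mean. The 3019 genes searched had a mean of at least 5 in PD or DMSO organoids. Genes with predicted, Rik, clone or pseudogene names were left out. Nearest to Dusp6 were Sema7a at 0.0533, Ncam1 at 0.149 and Cytl1 at 0.167. Nearest to Dusp4 were Etv5 at 0.0639, Ret at 0.104 and Egr1 at 0.181, and nearest to Egr1 were Ppp1r3b at 0.132, Espn at 0.137 and Etv5 at 0.147. Etv5, an ETS factor gene, had a log2 difference of -3.21. For Map2k1 the nearest were Prdm9 at 0.0454, Ubash3b at 0.0478 and Bnip3l at 0.0584. For Ier2 they were Selenoh at 0.0489, Ifitm2 at 0.0582 and Cystm1 at 0.0601, and for Myc Stx16 at 0.0660, Spag1 at 0.0678 and Iqsec1 at 0.0738. With 2 groups, such likeness reflects mainly the size of the group difference on log2(value + 1). Ratios of means can still differ, because adding 1 compresses changes at low values. Sema7a averaged 0.467 in PD organoids and 15.3 in DMSO organoids, against 12.3 in PD organoids and 149.8 in DMSO organoids for Dusp6.

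In bulk samples fewer cells of a type and less RNA per cell cannot be told apart. The labels describe epithelial cells, but markers of other cell types were present as well. Epcam, Cdh1 and Krt8 had means of 514, 114 and 83.0 in PD organoids and 836, 53.6 and 253.6 in DMSO organoids. Of the epithelial markers 6 are in the table, of which 4 were lower and 2 higher in PD organoids, and their summed signal was 903.6 to 932 in PD libraries and 1817 to 1932 in DMSO libraries. Of 7 fibroblast markers 5 were higher and 2 not called, where 44.5% of the table was higher. Their sums were 3933 to 4446 in PD libraries and 1730 to 1902 in DMSO libraries. The fibroblast sums, mostly Lum, Dcn and Vim, were above the epithelial sums in every PD library. These sums add different genes, so they do not compare the amounts of the cell types. Lum averaged 1794 in PD organoids and 619 in DMSO organoids, Dcn 1603 in PD organoids and 767 in DMSO organoids, and Vim 803 in PD organoids and 445 in DMSO organoids. Col3a1 and Pdgfra were higher too, whereas Col1a1 and Col1a2, the 2 not called, stayed under 1 on average in each group. Of 6 hair cell markers on the list only Pou4f3 and Pvalb are in the table, and the other 4 are not analysed here. Both were low and higher in PD organoids, with sums of 1.22 to 2.51 in PD libraries and 0.28 to 0.53 in DMSO libraries. Espn, also a gene of hair cells but not on the list, was lower, at 2.46 in PD organoids and 32.3 in DMSO organoids. These genes therefore give no direction for hair cell genes as a class. Of 7 prosensory and supporting cell markers on the list only Sox2, Lgr5 and Jag1 are in the table, and the other 4 are not analysed here. All 3 were lower, where 51.1% of the table was lower. Their sums were 25.9 to 30.4 in PD libraries and 55.8 to 60.6 in DMSO libraries. The Sox2 call was lost under median-of-ratios scaling (limma adjusted p = 0.0555). Of 4 neuron markers on the list Tubb3, Dcx and Syt1 are in the table. All 3 were higher, where 44.5% of the table was higher, with sums of 4.5 to 5.04 in PD libraries and 0.46 to 0.68 in DMSO libraries. Of the endothelial markers Kdr and Cdh5 were higher and Tek lower, with sums of 13.0 to 14.8 in PD libraries and 33.2 to 39.1 in DMSO libraries. The sums were mostly Tek, at 9.11 in PD organoids and 35.3 in DMSO organoids. Kdr averaged 4.28 in PD organoids and 0.79 in DMSO organoids, and Cdh5 0.663 and 0.0167. The 1 leukocyte marker in the table, Ptprc, was at 0 in every DMSO library and reached 0.21 in PD libraries. Of 13 mitochondrially encoded genes, listed as a possible sign of RNA quality, 5 are in the table, and the other 8 are not analysed here. These 5 were all higher, where 44.5% of the table was higher. Their sums were 43164 to 45489 in PD libraries and 24905 to 28605 in DMSO libraries. These markers separated the groups along with the 6 genes, and their part in the results was not tested. With each library scaled to an equal sum without the mitochondrially encoded genes, the log2 differences were -1.44 for Map2k1, -3.42 for Dusp6, -3.16 for Dusp4, -3.29 for Egr1, -0.94 for Ier2 and 0.77 for Myc.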

How the data were processed

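Per the submitters' processing notes, the tools were Trimmomatic, HISAT2, HTSeq and DESeq2 and the build mm10; their versions, roles and settings were not given in the sources used here. Per the labels, 2 µg of total RNA went into each stranded mRNA library. The signal the authors deposited is normalized, has 2 decimals and carries no stated scale; it is not counts, so depth is unknown. The authors deposited with it their group means, a fold, a log2 fold and p-values, raw and adjusted. Columns were matched to samples by name.

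The 6 genes and the gene lists were chosen with earlier results of these data known. The test was limma 3.58.1 in R 4.3.3, with a trend, on log2(value + 1) over all 4994 genes and 6 samples, without a filter or block. Adjustment was by Benjamini-Hochberg over the table, and genes under 0.05 were called. Errors are SD of means and SE of log2 differences. The procedure was tested on simulated data. Genes named are the 6, all listed genes of a list with up to 12 in the table, otherwise the 8 with the smallest adjusted p, and the 3 closest profiles per gene. Ratios used exact permutation tests in scipy 1.17.1. Alternatives were other pseudocounts, a filter on low values, 2 scalings, no trend, the replicate number as a block, and 1 sample left out at a time.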

Additional observations from a re-analysis of the deposited data

How the results depend on the processing

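All 6 genes kept their direction and an adjusted p under 0.05 in limma under 13 alternatives each. The log2 differences without any single replicate ranged from -1.55 to -1.51 for Map2k1, -3.58 to -3.44 for Dusp6, -3.42 to -3.07 for Dusp4, -3.43 to -3.27 for Egr1, -1.11 to -0.95 for Ier2 and 0.60 to 0.84 for Myc. Median-of-ratios scaling, computed on genes selected for differing, put the median over all genes at -0.18, against -0.42 for the values as deposited, and gave -1.17 for Map2k1, -3.16 for Dusp6, -2.93 for Dusp4, -3.12 for Egr1, -0.68 for Ier2 and 1.00 for Myc. With a pseudocount of 0.1 the difference was -5.03 for Egr1 and -3.86 for Dusp4. Genes called numbered 4159 to 4803 under the alternatives other than leaving out a replicate, the lowest with the filter, which tested 4314 genes, and 4626 to 4660 without any single replicate.

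Same-numbered samples did not deviate together (correlations of -0.032, -0.0052 and -0.0013), so no pairing by number shows in the values. This does not tell whether same-numbered samples were cultured or processed together. The replicate block gave 4761 calls against 4770 without it. With the replicate block all 6 genes were still called, and the list of immediate early genes had 21 calls against 20.

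Among the pairwise ratios, those among Dusp6, Dusp4 and Egr1 changed sign. Dusp6 over Dusp4 was 0.26 at a pseudocount of 0.1, and Dusp6 over Egr1 was 1.43 at 0.1 and 0.45 at 0.5, because a smaller pseudocount compresses low values less. Dusp4 over Egr1 ranged from -0.015 to 0.23 without any single replicate, being negative without PD replicate 3, and was 1.17 at a pseudocount of 0.1 and 0.48 at 0.5, against 0.12 at 1. The other 12 pairs kept their direction under 10 alternatives each.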

Other observations

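PD replicate 2 had the highest value of the 3 PD libraries in 15 of the 21 immediate early genes in the table, 71.4% of them, against 31.9% of all 4994 genes. Ier2 at 20.01, Jun at 12.09, Klf10 at 8.75, Fosb at 2.58 and Myc at 8.6 were among them. In the same library Egr1 at 0.2, Dusp6 at 11.13, Dusp4 at 0.97 and Map2k1 at 77.52 were the lowest of the PD libraries. This count was made after the values were seen and was not tested.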
